A study of Mus musculus with 4 samples.

Results

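The comparison described here set the spots of a neonatal mouse heart that were richest in RNA of cell cycle genes against the spots poorest in it, within a single section taken 4 days after injury. The spots were selected on measured values. Each spot with at least 2500 UMIs (unique molecular identifiers, 1 per captured RNA molecule) received a score, the share of its UMIs from Mki67, Top2a, Ccnb1, Ccnb2, Cdk1, Birc5, Ube2c, Cenpf, Prc1 and Nusap1. The 132 spots of the top 20% are called cycling-rich and the 132 spots of the bottom 20% cycling-poor, out of 659 spots with at least 2500 UMIs among the 665 listed for the section and 3067 listed in all.

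The series holds Visium spatial RNA profiles of heart sections from ICR mice, a strain for which the labels give no genetic change. Each animal had its left ventricular apex frozen with a cold probe at postnatal day 1, and its heart, frozen without fixation, was cut at 10 µm. The groups d1, d4, d7 and d14 are 1, 4, 7 and 14 days after this cryoinjury, with 1 section each, so no value below has a replicate, and no uninjured section is among the samples. A Visium spot covers a small area that can hold several cells of different types, so a level in a spot belongs to a mixture. Neither the positions of the spots nor images entered the work, and the rule by which the listed spots had been selected upstream is not stated.

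In the first days after birth mouse cardiomyocytes still divide, and the heart can replace muscle lost to injury, an ability that fades as the cells become binucleate, change their metabolism and leave the cell cycle. Fibroblasts, endothelial cells and immune cells divide in the same tissue, so a spot rich in cell cycle RNA need not owe it to cardiomyocytes. Genes of mitosis are expressed late in the cycle. Many of them carry a CHR element (cell cycle genes homology region) and CCAAT boxes, the docking sites of the DREAM, B-Myb-MuvB and NF-Y complexes, in the promoter, while many genes of DNA replication carry E2F sites and are expressed earlier.

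The scores ran from 0 to 2293 CPM (UMIs per 1e6 UMIs) over the 659 spots, with a median of 619, and 21 spots held no UMI of the scoring genes. Of the 3 genes that mark cycling cells, Mki67, a protein of dividing nuclei, was at 167 CPM over the cycling-rich spots and 24.6 over the cycling-poor spots. Top2a, the topoisomerase that untangles replicated DNA, was at 143 and 26.7. Ccnb1, the cyclin of mitotic entry, was at 87.5 and 19.5. These genes chose the spots, so their difference describes the selection and is no result, and the same holds for the other 7 scoring genes.

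A cycling-rich spot held 5 to 30 UMIs of the 10 scoring genes, with a median of 12, and a cycling-poor spot 0 to 6, with a median of 1. The cycling-poor end stopped at a score of 349.7, and the next spot outside it stood at 352.5. At the other end the last spot inside stood at 975.5 and the next outside at 974.9. A score from so few molecules orders neighbouring spots loosely, and the plot of the score by spot shows a continuous rise with no gap at either limit.

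**Figure D1:**
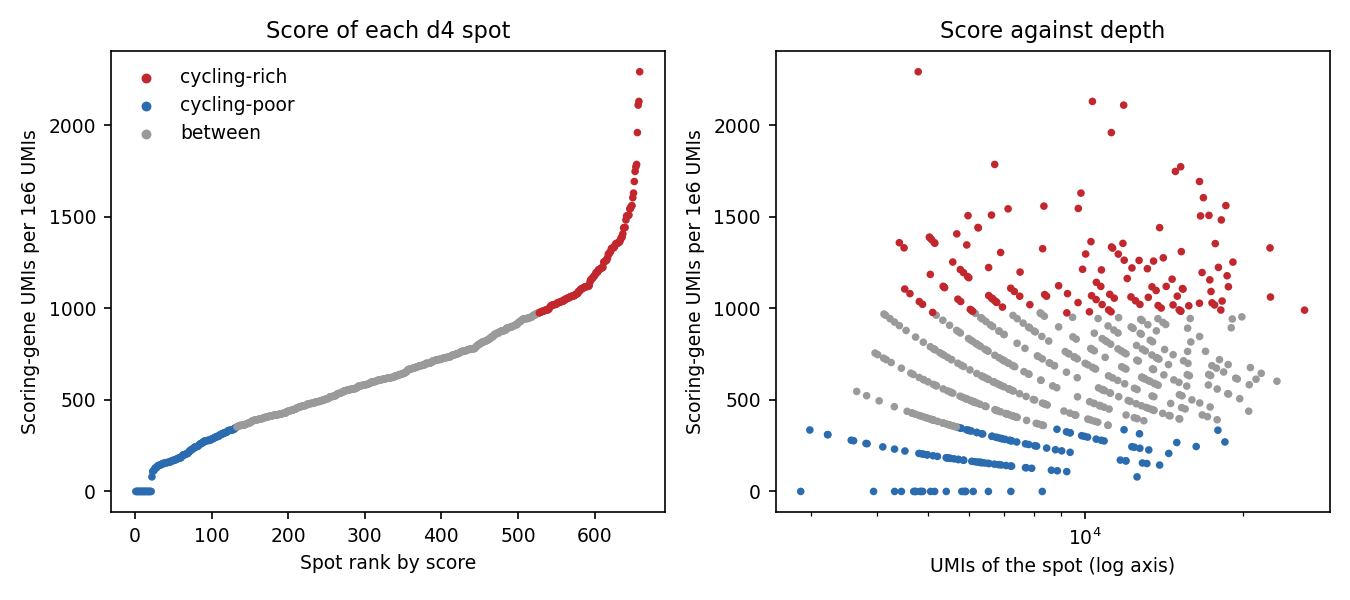
Score of each of the 659 d4 spots, in scoring-gene CPM, by rank (left) and against the UMIs of the spot on a log axis (right). Red points are the 132 cycling-rich spots, blue points the 132 cycling-poor spots and grey points the spots between, and the cycling-rich spots reach down only to 4416 UMIs while the cycling-poor spots reach down to 2862.

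The promoters of the genes that chose the spots, and of the genes that went with them, are shown first, because the late cell cycle genes share short sequence elements there. The windows are the 120 bases before the annotated start, 5′ to 3′ on the gene's strand, from the RefSeq promoter table of GRCm38.p6. Capitals mark the CHR letters TTTGAA or TTCGAA and the CCAAT box letters CCAAT, each on either strand, so a capital TTCAAA or ATTGG is the same element read from the other strand. Top2a (chr11:99024190-99024309, minus strand) and Cdk1 (chr10:69352913-69353032, minus strand) are scoring genes. Hmgb2 (chr8:57511723-57511842, plus strand), Cks2 (chr13:51645112-51645231, plus strand), Cenpa (chr5:30666766-30666885, plus strand) and Tuba1c (chr15:99029771-99029890, plus strand) had no part in the score.
Top2a: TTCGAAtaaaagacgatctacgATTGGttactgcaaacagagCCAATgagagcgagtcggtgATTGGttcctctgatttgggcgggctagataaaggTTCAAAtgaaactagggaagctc
Cdk1: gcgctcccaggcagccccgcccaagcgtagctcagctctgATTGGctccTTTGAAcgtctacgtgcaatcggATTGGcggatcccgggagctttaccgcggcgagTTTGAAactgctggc
Hmgb2: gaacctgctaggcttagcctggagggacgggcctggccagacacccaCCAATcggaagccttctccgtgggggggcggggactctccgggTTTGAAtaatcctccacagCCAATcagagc
Cks2: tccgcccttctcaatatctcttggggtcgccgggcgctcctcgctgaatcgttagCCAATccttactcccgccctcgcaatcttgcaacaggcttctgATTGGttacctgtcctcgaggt
Cenpa: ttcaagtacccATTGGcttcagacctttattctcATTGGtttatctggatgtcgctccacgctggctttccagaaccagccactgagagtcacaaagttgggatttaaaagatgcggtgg
Tuba1c: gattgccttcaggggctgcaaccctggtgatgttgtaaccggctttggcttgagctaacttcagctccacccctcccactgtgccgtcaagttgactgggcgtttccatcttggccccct

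In the Top2a window the CCAAT letters begin 98, 78 and 58 bases before the start, and CHR letters begin 120 and 23 bases before it. In Cdk1 they begin 80 and 48 bases before the start, with CHR letters at 71 and 15. The Hmgb2 window holds both elements, the Cks2 and Cenpa windows hold CCAAT boxes without a CHR, and the Tuba1c window holds neither set of letters. A match is a description of the letters and not a binding site, and its absence says only that these letters are not in these 120 bases.

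Over the 250 bases before the start, 17.1% of the 32851 promoters of the table held a CHR, 33.8% a CCAAT box and 6.02% both. Among the genes of a mitosis list without the scoring genes, 49 of 62 genes matched the table, and 32.1% of their 53 promoters held both elements. The scoring genes matched with 11 promoters, of which 54.5% held both. For a list of DNA replication genes, 45 of 53 matched and 13.2% of 53 promoters held both, while 22.6% held an E2F site (TTTCCCGC, TTTGGCGC, TTTCGCGC or TTTGCCGC on either strand) against 1.86% of all promoters. In a list of extracellular matrix genes 12 of 22 matched, and none of their 15 promoters held both elements. Of the genes that were higher in the cycling-rich spots, described next, 176 of 230 matched and 7.51% of 213 promoters held both, beside 4.46% of the 5540 promoters of all genes compared.

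For the comparison itself every spot was thinned at random to 2500 UMIs, so that each counts alike, the scoring genes were removed, and the remaining counts were pooled per end and given as CPM of the remaining counts. This left 329602 UMIs in the cycling-rich end and 329943 in the cycling-poor end. A gene was called higher or lower when it had at least 20 UMIs over both ends, a ratio of at least 1.5 or at most 0.667, and an exact binomial 95% interval that excluded 1. That interval covers counting error only, and the spots of 1 heart are neighbours and not replicates, so no p-value is given. In a mixture of cells, fewer cells of a type and less RNA per cell cannot be told apart.

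Of 5316 genes compared, 230 (4.33%) were higher and 111 (2.09%) were lower in the cycling-rich spots, with a median log2 ratio of 0.03. Higher genes made up 67.5% of the calls, and 55.2% when the ends were rescaled by TMM, which lowered the median to -0.02. Of the 24 mitosis, 22 replication, and 30 chromatin and tubulin genes among those compared, 6, 0 and 7 were called higher, which makes 13 of the 230. The 40 lists, with 638 distinct genes, hold 55 of the 230, and 175 belong to none. Of the 111 lower genes 7 belong to a list. Most single calls rest on few molecules: a second random thinning of the same spots gave 230 higher and 89 lower genes, of which 85 and 17 were those of the first. The lists below are therefore given by their summed level over every measured member, and most single genes of d4 with counts, levels or an interval. Where a gene has a ratio alone, as for several genes in other sections, its counting error cannot be read from the text.

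The ends also differed in depth and in mitochondrial RNA before thinning. Cycling-rich spots had 4416 to 26254 UMIs, with a median of 10411, and cycling-poor spots 2862 to 18494, with a median of 6470.5, so the ranges overlap but the cycling-rich spots are mostly deeper. The median share of mitochondrially encoded RNA was 4.57% and 5.80%. After thinning, the median number of genes detected per spot was 1399 and 1360.5. The comparison was also made with the ends drawn within each of 4 bands of spots by depth. There 181 of 5268 genes (3.44%) were higher and 89 (1.69%) lower, of which 114 and 53 were among the 230 and 111, and ratios within depth bands are given beside several of the lists below.

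Genes of mitosis were higher together in the cycling-rich spots, which were themselves chosen on genes expressed late in the cycle. The 62 genes of the mitosis list, none of them used in the score, summed to 2312 CPM in the cycling-rich end and 1394 in the cycling-poor end, a ratio of 1.66 (95% interval 1.48 to 1.87). The thinned level per spot was 400 to 5200 CPM with a median of 2200 in cycling-rich spots, and 0 to 3600 with a median of 1200 in cycling-poor spots, so single spots overlap widely. Of the 62 genes 24 reached 20 UMIs, and of these 6 were higher, none was lower and 22 had a ratio above 1, with a median log2 ratio of 0.62 beside 0.03 for all genes. The level was higher in each successive bin when the spots were ordered by score in 5 bins, from 1394 through 1576, 1662 and 1959 to 2312 CPM.

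The 6 higher mitosis genes have roles at the kinetochore, in chromosome packing and in the final cut between daughter cells. Racgap1, part of the centralspindlin complex of cytokinesis, had 27 UMIs in the cycling-rich and 8 in the cycling-poor end, a ratio of 3.38 (1.49 to 8.61). Spc24, a subunit of the NDC80 kinetochore complex, had 24 and 7 UMIs. Its partner Spc25 had 23 and 10. Cks2, a small protein that binds cyclin-dependent kinases, had 41 and 14 UMIs, a ratio of 2.93 (1.57 to 5.82), and Smc4, a condensin subunit, had 22 and 9. Cenpa, the histone of centromeres, had 67 and 42 UMIs, a ratio of 1.60 (1.07 to 2.41). A single thinning keeps few of these molecules: with the second thinning 1 of the 6, Smc4, passed again, while in the unthinned counts of the same spots 5 of the 6 passed, all but Cenpa, at a ratio of 1.297 (1.06 to 1.59). Unthinned, 61 of the 62 genes reached 20 UMIs, 25 were higher, none was lower, and the summed ratio was 1.65 (1.55 to 1.76), beside 602 of all 9726 genes (6.19%) higher and 257 lower unthinned. The thinned and unthinned counts share molecules and are not separate measurements.

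Genes that package chromatin and build the spindle showed a smaller difference in the same direction. The 30 genes of this list, all with at least 20 UMIs, summed to 7403 and 5616 CPM, a ratio of 1.32 (1.24 to 1.40). Of the 30, 7 were higher and none was lower, 29 had a ratio above 1, and the median log2 ratio was 0.35. Hmgb2, a chromatin protein abundant in dividing cells, had 62 and 33 UMIs, a ratio of 1.88 (1.21 to 2.96). The tubulins Tuba1c and Tubb6 had ratios of 2.002 (1.37 to 2.96) and 2.69 (1.56 to 4.82), and these and Hmgb2 passed again both in the second thinning and unthinned. H2afx, a histone variant, had 25 and 8 UMIs, the nuclear lamina gene Lmnb1 had 22 and 8, and Hmgn2 and Lbr also passed. H2afx and Lmnb1 passed again only unthinned, Hmgn2 and Lbr in neither. Tuba1b, at 1038 and 800 CPM, had a ratio of 1.297 (1.10 to 1.53) and stayed under the size rule.

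DNA replication genes differed far less than mitosis genes between these spots. The 53 members summed to 2021 and 1779 CPM, a ratio of 1.14 (1.02 to 1.27), and of 22 with enough UMIs none was called, with a median log2 ratio of 0.14. Pcna, the sliding clamp of DNA polymerase, was at 164 and 158 CPM, and Rrm2, which makes deoxynucleotides, at 88.0 and 118, a ratio of 0.74 (0.44 to 1.24). The intervals of the 2 lists' summed ratios do not overlap, but the spots were ranked on genes expressed late in the cycle. A larger ratio for the mitosis list can follow from that choice, so the contrast is no separate result. Spots chosen on the replication list instead were mostly other spots: 38 of the 132 cycling-rich spots were also in the top 20% by replication, 35 of the cycling-poor spots were also in its bottom 20%, and 41 spots were at opposite ends of the 2 rankings. The 38 are 28.8% of the cycling-rich spots, where unrelated rankings would share about 20%. Unrelated rankings would also put about 20% of the spots of each end at the opposite end, so the 41 are not more than those would give. The top 20% by the mitosis list held 48.5% of the cycling-rich spots.

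Of the genes that enter or restrain the cycle 1 was called. Of the G1 cyclins and kinases 5 of 10 had enough UMIs and none was called. Ccnd1 was at 106 and 66.7 CPM, a ratio of 1.59 (0.91 to 2.85), and Ccnd2 at 146 and 136. The cell cycle brakes summed to 840 and 706 CPM, a ratio of 1.19 (1.00 to 1.42). Of these 6 of 21 had enough UMIs, and Btg1, an antiproliferative protein, was higher with a ratio of 1.94 (1.05 to 3.72). The p21 gene Cdkn1a had 7 and 10 UMIs, under the minimum, and Egr1, an immediate early transcription factor named in the title of the series, a level of 57.7 and 54.6, a ratio of 1.06 (0.52 to 2.14). The immediate early list summed to 795 and 718 CPM with none of 10 called. Ribosome biogenesis genes, often high in growing cells, summed to 1526 and 1276 CPM, a ratio of 1.20 (1.05 to 1.37), with none of 13 called and a median log2 ratio of 0.00. Within depth bands that ratio was 1.07 (0.94 to 1.22).

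**Figure D2:**
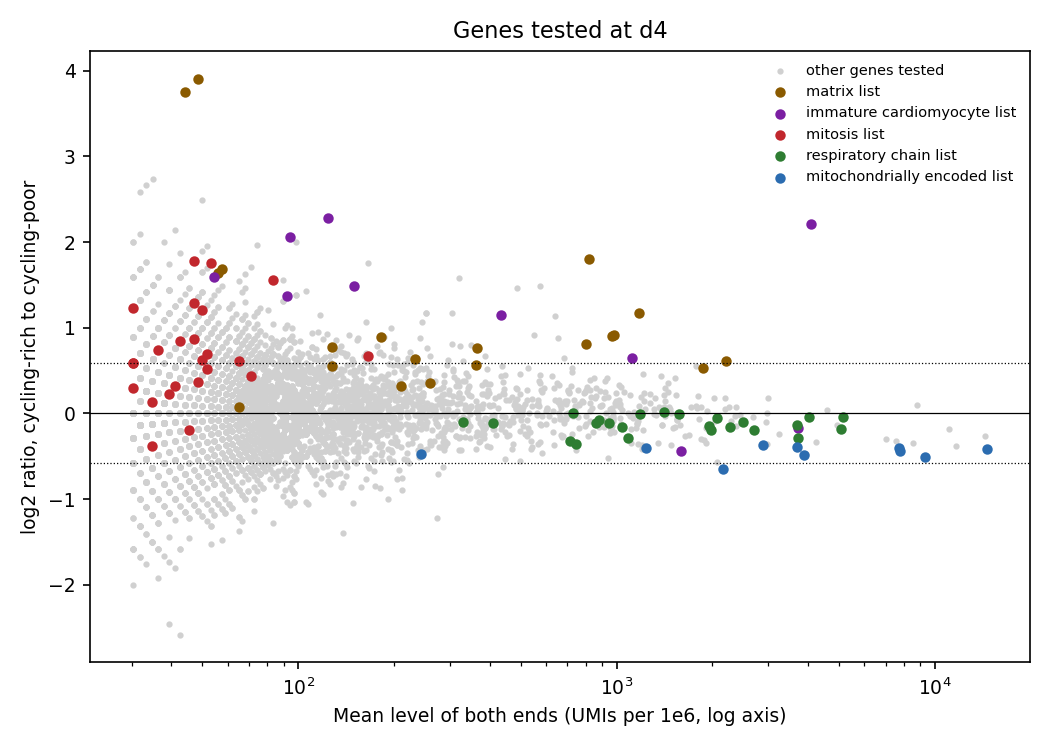
Ratio of cycling-rich to cycling-poor spots on a log2 scale against the mean level of both ends in CPM on a log axis, for the 5316 genes compared at d4, with dotted lines at 1.5-fold. Mitosis genes lie mostly above 0 at low levels, 14 of 20 matrix and 8 of 10 immature cardiomyocyte genes were called above 1.5-fold, and mitochondrially encoded genes lie below 0.

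Among called genes with at least 40 UMIs, the largest ratios were those of the natriuretic peptides. Nppa, the gene of atrial natriuretic peptide, expressed in atria, in trabeculae of young ventricles and in stressed ventricular muscle, lies on chromosome 4 at 148000722 to 148002079 (GRCm38, plus strand). Its level was 6720 CPM in the cycling-rich end and 1449 in the cycling-poor end, a ratio of 4.64 (4.20 to 5.13). Per spot it held 0 to 124 of the 2500 UMIs with a median of 5 in the cycling-rich end, and 0 to 95 with a median of 2 in the cycling-poor end, so the pooled ratio rests on a minority of very high spots in both ends. Across these 5 bins Nppa did not rise steadily, with 1449, 3274, 5479, 3612 and 6720 CPM. Nppb, the gene of the B-type peptide, had 68 and 14 UMIs, a ratio of 4.86 (2.71 to 9.36).

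These peptides belong to a list of 10 genes of immature or stressed cardiomyocytes, which summed to 14305 and 8589 CPM, a ratio of 1.67 (1.59 to 1.75). Most of the difference between these sums was that of Nppa, whose levels are given above. Per spot the list had a median of 10000 CPM in the cycling-rich end and 8000 in the cycling-poor end. Members called higher were 8 of 10, and the same 8 passed in the second thinning and unthinned. Acta1 and Acta2, the skeletal and smooth muscle actins of fetal heart muscle, had ratios of 2.81 (1.77 to 4.58) and 2.22 (1.72 to 2.88). Ankrd1, a stress-responsive protein of the sarcomere, was at 1359 and 870 CPM, a ratio of 1.56 (1.34 to 1.82), and Xirp2, Tagln and Myl4 were also higher. The other 2 members had ratios below 1 and were not called: Myh7, the slow myosin heavy chain, was at 3477 and 3925 CPM, a ratio of 0.89 (0.82 to 0.96), and Tnni1, the fetal troponin I, at 1356 and 1840, a ratio of 0.74 (0.65 to 0.83). With the ends drawn within depth bands the list's summed ratio was 1.25 (1.20 to 1.31) with 4 members higher, and that of Nppa was 1.73 (1.60 to 1.87). Acta2 and Tagln are also smooth muscle genes, and Nppa and Myl4 are also atrial genes.

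Genes of the contracting and respiring muscle were somewhat lower in the cycling-rich spots, by less than the size rule. The 22 sarcomere genes summed to 66793 and 77310 CPM, a ratio of 0.86 (0.85 to 0.88), with none of 21 called. Myh6, the fast myosin heavy chain, was at 10149 and 13181 CPM, and Actc1, cardiac actin, at 9044 and 8486, so the members did not move as a block. Both ends are rich in heart muscle RNA, which matches the tissue label. Calcium handling genes had a ratio of 0.82 (0.78 to 0.86), mature cardiomyocyte genes 0.84 (0.82 to 0.87) with 1 of 16 called lower, fatty acid oxidation genes 0.86 (0.82 to 0.90) and nuclear genes of the respiratory chain 0.91 (0.89 to 0.93), with none called in the other lists.

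The mature cardiomyocyte gene called lower was Slc2a4, the insulin-responsive glucose transporter GLUT4, with 23 and 48 UMIs, a ratio of 0.48 (0.28 to 0.80), which passed again in the second thinning and unthinned but not within depth bands (0.64, 0.38 to 1.05). The 13 mitochondrially encoded genes summed to 45315 and 61647 CPM, a ratio of 0.74 (0.72 to 0.75), and each of the 10 with enough UMIs had a ratio below 1. mt-Co1 was at 12467 and 16679 CPM, a ratio of 0.75 (0.72 to 0.78), and mt-Nd2 was the only one called, with 0.64 (0.57 to 0.71), a call that neither the second thinning nor the unthinned counts repeated. Glycolysis genes had a ratio of 0.96 (0.91 to 1.01), with Pgam1 higher. The share of mitochondrial RNA also goes with RNA quality and depth, whose part in this difference was not tested, and within depth bands the ratio was 0.78 (0.76 to 0.80).

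Extracellular matrix genes were higher over a broad front. The 22 genes summed to 14072 and 7926 CPM, a ratio of 1.78 (1.69 to 1.86), and of 20 with enough UMIs 14 were higher, none was lower and all 20 had a ratio above 1, with a median log2 ratio of 0.79. Per spot the list held 2000 to 99200 CPM with a median of 8000 in cycling-rich spots. In cycling-poor spots it held 800 to 55600 with a median of 6400, so the pooled ratio rests in part on few very high spots. The fibrillar collagen genes Col1a1, Col1a2 and Col3a1 had ratios of 1.89 (1.60 to 2.23), 2.24 (1.92 to 2.62) and 1.52 (1.37 to 1.70). Col1a1 held 0 to 25 of the 2500 UMIs of a cycling-rich spot with a median of 2, and 0 to 19 with a median of 1 in cycling-poor spots. Eln, the gene of elastin (chromosome 5, 134702593 to 134747323, minus strand), was at 1271 and 364 CPM, a ratio of 3.50 (2.85 to 4.32), again with few high spots, since its medians per spot were 1 and 0 and its highest values 38 and 20.

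Fn1 and Postn, genes of the provisional matrix after injury, had ratios of 1.75 (1.46 to 2.10) and 1.87 (1.58 to 2.21). Cthrc1, a marker of activated cardiac fibroblasts, had 30 and 2 UMIs, and Col12a1 27 and 2, ratios of 15.02 (3.81 to 129.7) and 13.5 (3.40 to 117.3) that 2 molecules cannot fix. Unthinned, Cthrc1 had 119 and 13 UMIs, a ratio of 6.25 (3.52 to 12.09), and Col12a1 100 and 13, a ratio of 5.25 (2.94 to 10.21). The crosslinking enzymes Lox and Loxl1 were higher, whereas Vcan, a proteoglycan, was at 66.8 and 63.7 CPM. In the second thinning 13 of the 14 passed again.

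Fibroblast genes outside the matrix list went the same way. The 15 genes summed to 2970 and 1734 CPM, a ratio of 1.71 (1.54 to 1.90), with 8 of 13 higher and a median log2 ratio of 0.90. Their medians per spot were 2000 and 1600 CPM, and their highest values 18400 and 7600. Tcf21, a transcription factor of resident cardiac fibroblasts, had 33 and 15 UMIs, and Ptn and Mdk, related heparin-binding growth factors, had ratios of 2.26 (1.61 to 3.20) and 2.09 (1.38 to 3.22). Mfap4, a microfibril protein, had a ratio of 3.36 (2.13 to 5.49). The receptor gene Pdgfra, with 12 and 11 UMIs, was at 36.4 and 33.3 CPM. Within depth bands 8 of 20 matrix and 4 of 12 fibroblast genes were higher, with summed ratios of 1.45 (1.39 to 1.52) and 1.49 (1.35 to 1.65).

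**Figure D3:**
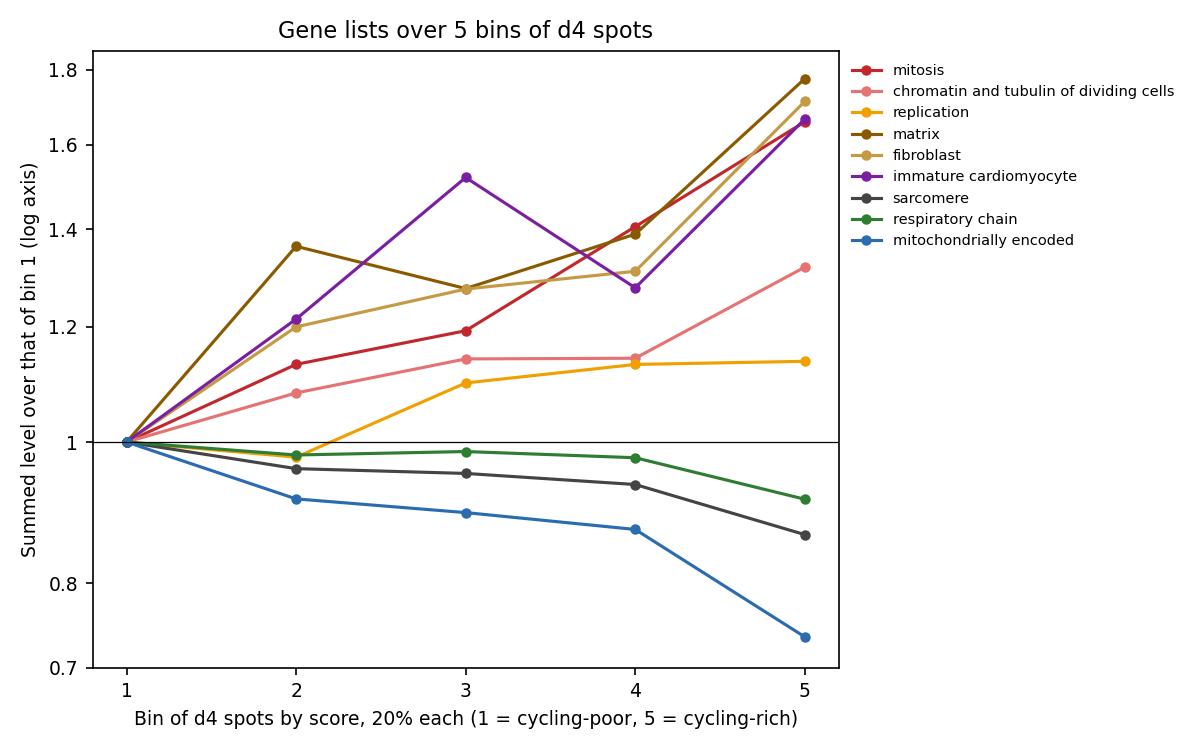
Summed level of 9 gene lists over 5 bins of d4 spots ordered by score, divided by the level in the cycling-poor bin, on a log axis. The mitosis list rises at every step, the matrix and immature cardiomyocyte lists rise unevenly, and the mitochondrially encoded list falls at every step to 0.74 of the cycling-poor level.

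Of the other cell types, mural, macrophage, and valve and mesenchyme lists had summed ratios above 1 and endothelial and neutrophil lists below 1. Endothelial genes summed to 2803 and 3228 CPM, a ratio of 0.87 (0.79 to 0.95), with Vwf higher at 16 and 4 UMIs and Ly6c1 lower at 21 and 43. Within depth bands the ratio was 0.94 (0.86 to 1.03) with none of 15 called, and Vwf did not pass in the second thinning (1.90, 0.84 to 4.58), where Ly6c1 did. Both genes passed unthinned. Mural genes had a ratio of 1.46 (1.299 to 1.63), with the contractile genes Acta2, Tagln and Myl9 higher, Abcc9 of pericytes lower, and the pericyte gene Rgs5 at 328 and 364 CPM. Within depth bands the mural ratio was 1.26 (1.13 to 1.42), and Abcc9 was called in neither the second thinning (0.88, 0.54 to 1.41) nor the unthinned counts (0.67, 0.53 to 0.85). Macrophage genes summed to 464 and 321 CPM, a ratio of 1.45 (1.12 to 1.87), with 1 of 5 higher, Tyrobp. Epicardial genes had a level of 203 and 146. Valve and mesenchyme genes summed to 1556 and 885 CPM, from 513 and 292 UMIs, a ratio of 1.76 (1.52 to 2.04), with Postn and Aspn higher of 3. Within depth bands it was 1.46 (1.27 to 1.68), with Postn higher.

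Neutrophil genes were at 12.1 and 69.7 CPM, from 4 and 23 UMIs, a ratio of 0.17 (0.04 to 0.51) and of 0.33 (0.12 to 0.81) within depth bands, with 7 of the 10 members at 0 in the cycling-rich and 5 in the cycling-poor end. The median cycling-poor spot was at 0 and the highest at 3200 CPM, so single spots weigh heavily here. Unthinned, the neutrophil ratio was 0.45 (0.28 to 0.71). Lymphocyte genes were at 15.2 and 36.4 thinned, and at 22.43 and 21.55 unthinned. The endocardial and trabecular list (325 and 270), with a ratio of 1.20 (0.90 to 1.61), had Vwf higher and Cited1 lower. Neither passed in the second thinning, and both passed unthinned. Unthinned, the list's ratio was 1.36 (1.16 to 1.605), with 5 of 10 genes higher and 1 lower, beside 6.19% of all genes higher. The compact layer list (531 and 515) had none of 5 called. Erythroid precursor genes were level at 134 and 136, while haemoglobin genes, carried by blood in the tissue, were at 3028 and 4419, with Hba-a2 lower. Schwann cell genes were low, at 9.10 and 21.2 from 3 and 7 UMIs. Genes of tissues that the section should lack were low too: skeletal muscle genes were at 15.2 and 12.1, with no UMI for any of the 6 adipocyte genes. The lung list reached 674 and 791 through Hopx, which heart muscle also expresses, and 5 of its 7 genes were at 0 in either end.

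The remaining lists hold signals tied to regeneration of the neonatal heart. In the agrin and Yap list, with a ratio of 1.34 (1.20 to 1.48), Ccn2, a Yap target, was higher at 1.72 (1.17 to 2.57), as were Ankrd1 and Axl, a receptor tyrosine kinase, while Agrn, the matrix protein agrin, was lower at 0.58 (0.36 to 0.92). The call for Agrn did not return in the second thinning (0.75, 0.47 to 1.18) or unthinned (0.75, 0.59 to 0.95), nor did that for Axl (1.38, 0.76 to 2.55, and 1.295, 0.96 to 1.77). Within depth bands the list's ratio was 1.19 (1.07 to 1.32), with Ccn2 alone called. Of the ErbB and growth signal list none of 9 was called, of the hypoxia list Bnip3 was higher of 8, and of the imprinted growth list Ndn was higher of 11, with summed ratios of 0.97 (0.82 to 1.16), 1.05 (0.91 to 1.21) and 1.06 (0.98 to 1.15). Bnip3 passed in neither the second thinning (1.08, 0.60 to 1.94) nor the unthinned counts (1.07, 0.78 to 1.49), and Ndn passed unthinned but not in the second thinning (1.92, 0.92 to 4.23). The reference list of housekeeping genes was itself at 1.16 (1.11 to 1.21), with 1 of 11 called, so summed ratios of that size are not read as specific.

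Of the 15 genes named for the largest ratios, Nppb, Nppa, Tagln, Eln, Mfap4, Cks2 and Acta1 are in lists and the others are in none. Adamts2, a procollagen protease, had a ratio of 4.00 (2.15 to 8.02), Adamtsl2, which binds microfibrils, 3.90 (1.91 to 8.77), Mgp, an inhibitor of calcification, 2.98 (2.17 to 4.15), and Bgn, the proteoglycan biglycan, 2.79 (2.22 to 3.55). Itga5, the fibronectin receptor subunit, had 2.94 (1.60 to 5.68). Cap1, which turns over actin filaments, had 3.28 (1.63 to 7.14), Ipo4, a nuclear import receptor, 3.09 (1.53 to 6.77), and the non-coding RNA Bc1 2.91 (1.43 to 6.40). All 15 passed in the unthinned counts and 13 in the second thinning, where Cks2 and Cap1 did not.

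The genes with the smallest ratios held up less. Igfbp5, an insulin-like growth factor binding protein, had 25 and 66 UMIs, a ratio of 0.38 (0.23 to 0.61), and one cycling-poor spot held 10 of the 66. Others were Mta1, Hsd17b4, Pccb, Lmod3, Gga1, Aamdc, Dnajb4, Lrrc14b, Slc2a4, Hhatl, Arhgef10l, Nudt3 and Smim4, with ratios from 0.39 for Mta1 to 0.49 for Smim4. Hsd17b4 and Pccb act in mitochondrial or peroxisomal acyl metabolism, and Lmod3 in the muscle fibre. Of the 15 genes the naming rule took, the second thinning called 2 again, Slc2a4 and Lrrc14b, and the unthinned counts 5, Igfbp5, Lmod3, Aamdc, Slc2a4 and Lrrc14b. For Dnajb4 the unthinned ratio was above 1, at 1.27 (0.90 to 1.80).

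The cycling-rich spots included more of the spots with the highest matrix and atrial signal, so the comparison was repeated without those. Of the 20% of all d4 spots richest in a 15-gene injury region list of matrix, macrophage and neutrophil genes, 38 spots (28.8% of the cycling-rich) were cycling-rich and 16 (12.1% of the cycling-poor) were cycling-poor. Of the 20% richest in an 11-gene atrial list, 46 (34.8%) were cycling-rich and 6 (4.55%) cycling-poor. The atrial list summed to 6981 and 1576 CPM, a ratio of 4.43 (4.03 to 4.88), nearly all of it Nppa: Myl7, the atrial myosin light chain, had 4 UMIs and 1, and 3 of the 11 members were at 0 in each end. Within depth bands the atrial ratio was 1.73 (1.60 to 1.86), with Nppa called of the 3 members that were called over all spots, Nppa, Myl4 and Dkk3.

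Without the injury-list-rich spots a matrix difference was not detectable at this depth, with a summed ratio of 1.06 (0.99 to 1.13) and 1 of 15 genes higher, beside 94 of all 4327 (2.17%), and the fibroblast ratio was 1.15 (1.00 to 1.32). Without the atrial-list-rich spots the immature cardiomyocyte ratio was 1.03 (0.97 to 1.10), with Nppb, Tagln and Acta2 still higher, and the matrix ratio 1.44 (1.36 to 1.53). The injury region list shares Fn1, Tnc, Postn, Col1a1, Col3a1 and Cthrc1 with the matrix list, and the atrial list shares Nppa and Myl4 with the immature cardiomyocyte list, so leaving out spots by these lists removes high values of the same genes by construction.

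The mitosis list's summed ratio was 1.64 (1.44 to 1.88) without the injury-list-rich spots and 1.59 (1.39 to 1.82) without the atrial-list-rich spots. It was 1.64 (1.42 to 1.89) without either, and 1.53 (1.37 to 1.72) within depth bands. In each case the ends were drawn again on the same scoring genes. Mitosis genes are expressed with those genes, so these ratios follow the selection and are no separate test of the mitosis difference. Racgap1, Spc24 and Cenpa were higher without either set. Without either set, with 92 spots per end, 78 of 3876 genes (2.01%) were higher and 60 lower, the chromatin and tubulin ratio was 1.19 (1.11 to 1.29), the matrix ratio 1.00 (0.93 to 1.08), the mature cardiomyocyte ratio 0.98 (0.95 to 1.02) and the mitochondrially encoded ratio 0.85 (0.83 to 0.87).

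**Figure D4:**
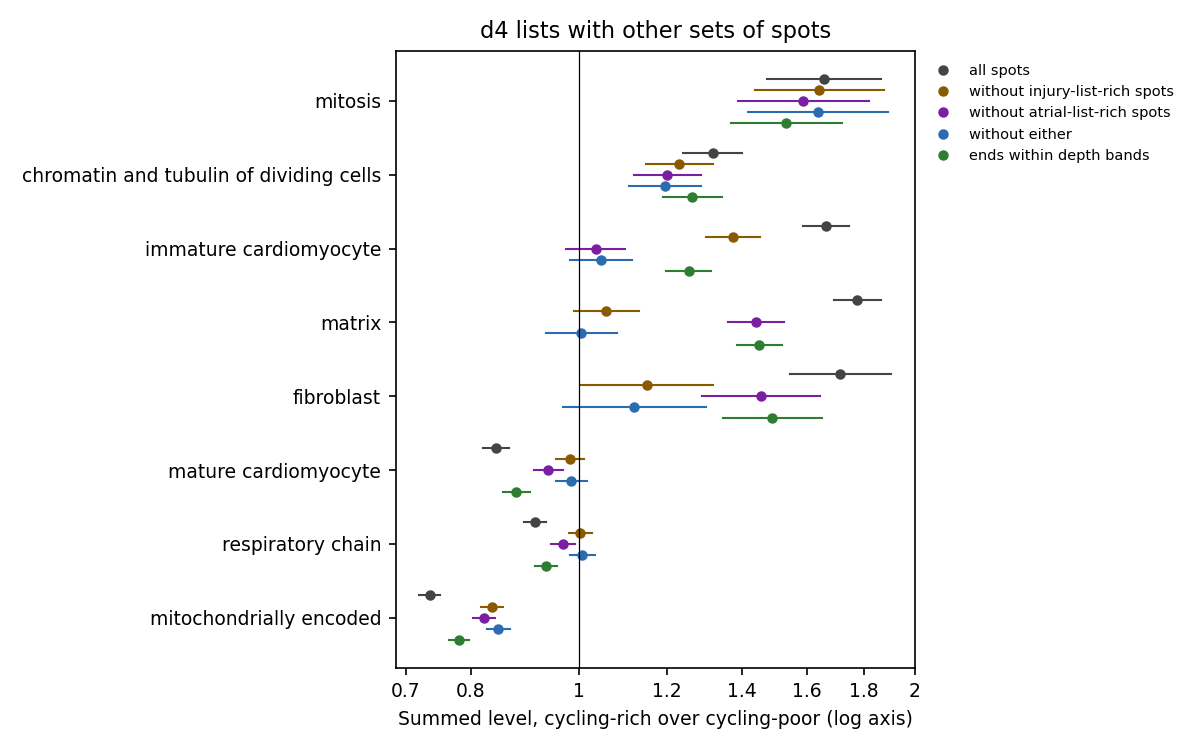
Summed level of 8 gene lists in cycling-rich over cycling-poor d4 spots, on a log axis, with all spots and with 4 other sets of spots. Points are ratios and bars are exact binomial 95% intervals for counting error, and the mitosis points stay near 1.6 while the matrix and immature cardiomyocyte points move to about 1 when the spots of their own lists are left out. In each other set the ends were drawn again with the same scoring genes, which mitosis genes follow.

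The same rule was applied to the other sections. At d1, with 405 spots of at least 2500 UMIs and 81 per end, 114 spots had a score of 0, so the cycling-poor end was filled from tied spots in barcode order. There 145 genes of 3152 (4.6%) were higher and 74 (2.35%) lower. At d7, with 771 spots and 154 per end, 124 of 5016 (2.47%) were higher and 51 (1.02%) lower. At d14 the rule could not be used, since 869 of 1044 spots had a score of 0.

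The mitosis list was higher in the cycling-rich spots of each section, with summed ratios of 2.04 (1.62 to 2.58) at d1, 1.66 at d4 and 1.69 (1.47 to 1.94) at d7. The ends of each section were drawn on the same scoring genes, so these ratios follow the selection and are no separate test. At d1 1 of the 62 genes of the list reached 20 UMIs, with a log2 ratio of -0.64 and no call, so the sum rests on genes with few molecules each, and at d7 2 of 14 were higher. The level in the cycling-rich spots was 1117 CPM at d1, 2312 at d4 and 1487 at d7. Cks2 had ratios of 3.00 at d1, from 12 and 4 UMIs, and 2.002 at d7, from 26 and 13. At d1 the ratio of replication genes was 1.22 (1.05 to 1.43), and at d7, where 3 of 15 were higher, 1.39 (1.21 to 1.61).

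The ratios of other lists are given side by side, since no test between sections was possible with 1 section each. Matrix genes had a ratio of 1.86 (1.71 to 2.03) with 8 of 17 higher at d1, 1.78 at d4, and 1.07 (1.03 to 1.12) with none of 22 called at d7. Eln, which was 3.50 at d4, was 1.28 at d1 and 1.23 at d7. Macrophage genes had a ratio of 4.82 (3.96 to 5.91) with 7 of 10 higher at d1, beside 1.45 at d4 and 1.15 (0.91 to 1.45) at d7. Per spot at d1 the macrophage list had medians of 400 and 0 CPM and highest values of 24400 and 17600. Its pooled d1 ratio thus rests in large part on few very high spots. Lyz2, an enzyme of macrophages and neutrophils, had 84 and 10 UMIs at d1 and 28 and 25 at d4. Immature cardiomyocyte genes were at 0.90 (0.84 to 0.97) at d1, 1.67 at d4 and 1.14 (1.07 to 1.22) at d7. Most of the d4 difference of that list was that of Nppa.

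Sarcomere genes were at 0.85 (0.83 to 0.87), 0.86 and 0.96 (0.95 to 0.98), and mitochondrially encoded genes at 0.89 (0.87 to 0.91), 0.74 and 0.93 (0.92 to 0.94), at d1, d4 and d7, so both were lower in cycling-rich spots of all 3 sections. Nppa had a ratio of 1.67 at d1 and 2.67 at d7. Of the 230 genes higher at d4, 134 had enough UMIs at d1, and 24 of these (17.9%) were also higher there, beside 4.6% of all genes at d1. They are 19.1% of the 126 genes higher at d1 that had enough UMIs at d4. At d7 195 had enough UMIs and 14 (7.18%) were also higher, beside 2.47% of all genes at d7, and they are 11.9% of 118 genes. Of the 111 lower genes 3 of 68 (4.41%, and 4.17% of 72) were also lower at d1 and 2 of 97 (2.06%, and 4.76% of 42) at d7, beside 2.35% and 1.02% of all genes. The sections come from different animals, and of the 665 d4 spot barcodes 651 occur in another section, 247 barcodes being in all 4, since Visium arrays share a barcode set.

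**Figure D5:**
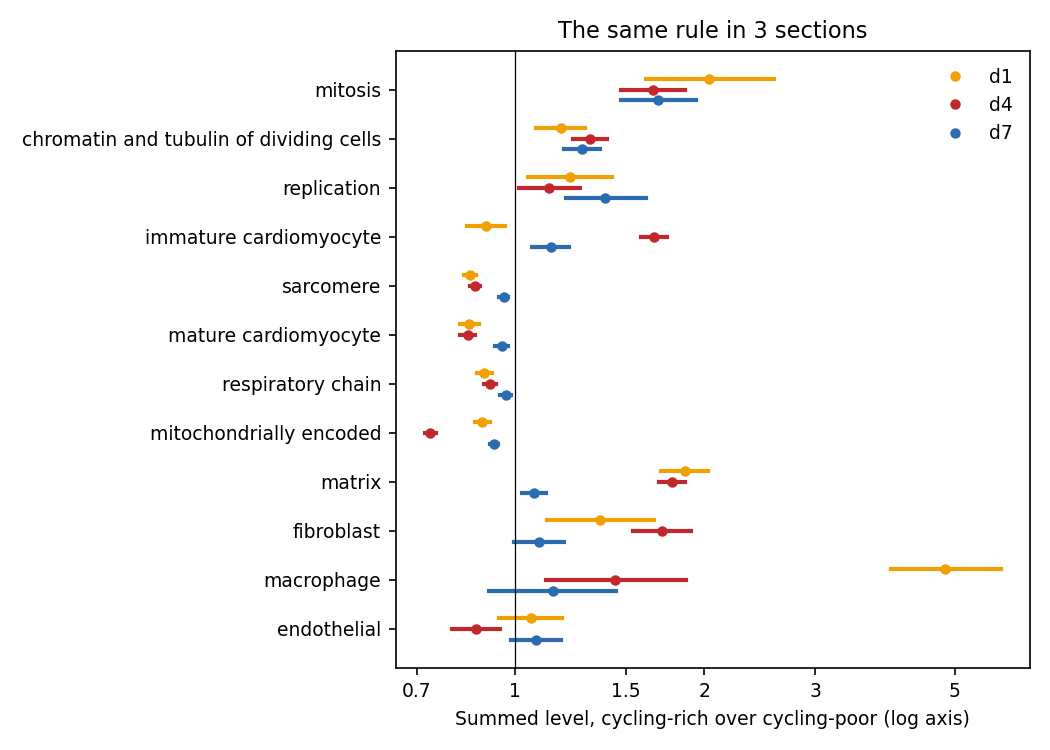
Summed level of 12 gene lists in cycling-rich over cycling-poor spots of the d1, d4 and d7 sections, on a log axis. Points are ratios and bars exact binomial 95% intervals for counting error, and the mitosis list lies above 1 in all 3 sections while the macrophage list reaches 4.82 at d1 and the matrix list 1.07 at d7. In each section the ends were drawn with the same scoring genes, which mitosis genes follow. The d1 macrophage ratio rests in large part on few very high spots.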

How the data were processed

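The authors deposited raw UMI counts per gene and spot for each section. Per the file headers Space Ranger 1.3.0 made them. The submitters' processing notes give build mm10 and also name Seurat 4.1.1, with no role. No further step is given in the sources used here. Of 32285 features, 32158 matched GENCODE vM21 by Ensembl ID. Aldoa, whose symbol several IDs share, and Ahsp were not measured in their lists. Columns of other samples: 0.

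Spots under 2500 UMIs were left out, and the others were thinned without replacement to 2500 UMIs (seed 1). The score used unthinned counts. Pooled counts without the 10 scoring genes were divided by their total and multiplied by 1000000. Ratios carry Clopper-Pearson conditional binomial 95% intervals for counting error. Genes at 0 in an end entered list medians at 3 counts. Scripts in Python 3.11.15 (numpy 2.4.6, pandas 2.3.3, scipy 1.17.1) and R 4.3.3 (edgeR 4.0.16, for TMM factors only) were tested on simulated data. Total UMIs per section were 3419864 (d1), 6187656 (d4), 6358894 (d7) and 4741982 (d14).

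Genes were named by rule: the 15 largest and 15 smallest ratios among called genes with at least 40 UMIs over both ends, leaving out predicted genes, genes of ribosomal proteins, haemoglobins and the mitochondrial genome, and sex-specific genes; up to 6 members with the most UMIs in each of 40 lists; and Egr1, Cdkn1a and Agrn. Of the 15 smallest ratios, 1 gene is not reported here. The list members called higher or lower, Cthrc1 and Col12a1 among them, and single low members such as Vcan, Pdgfra, Myl7 and Hopx were named after their values were seen. The members and lists were chosen with earlier results of these data known. Alternatives changed the size of the ends, the score, the thinning, the scaling, the gene minimum, the fold and the spots. Chosen after seeing the data were a wider interval at an error level of 0.001, also on unthinned counts, and the removal of spots of either the injury region or the atrial list.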

Additional observations from a re-analysis of the deposited data

Results flagged for a closer look

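The calls of 5 genes were opposite at d4 and in another section. Dact3, a Dishevelled-binding regulator of Wnt signals, had a ratio of cycling-rich to cycling-poor spots of 3.67 at d4 and 0.459 at d1. Cd151, a tetraspanin, had 0.567 at d4 and 2.16 at d1. Zfp768, a zinc finger gene, had 0.334 at d4 and 3.00 at d7. Zwint, a kinetochore protein, had 2.23 at d4 and 0.462 at d7. Smad5, which carries BMP signals, had 0.445 at d4 and 2.56 at d7. The differences between sections were not tested, and the ratios of Zfp768 rest on 5 and 15 UMIs in the ends of d4 and 15 and 5 in those of d7. The ratios of Dact3, Cd151 and Zwint are given without counts, so their counting error cannot be read from them. Smad5 had 68 and 66 unthinned UMIs in the cycling-rich and cycling-poor ends of d4. The unthinned cycling-rich end holds more UMIs in all, so equal counts there are a ratio below 1.

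The d14 section entered no comparison, and the scoring genes were detected there at 50.4 CPM over the 1044 spots with at least 2500 UMIs, beside 703.6 at d4. Both values are pooled scoring-gene UMIs over the pooled UMIs of such spots. A scoring UMI was found in 175 of its spots.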

How the results depend on the processing

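The counts moved by over 1.5 times from 230 higher and 111 lower genes as follows. Ends of 10% gave 131 and 65, a gene minimum of 40 gave 142 and 67, a 2-fold rule 150 and 63, and unthinned counts 602 and 257. A wider interval, at an error level of 0.001, gave 48 and 8, with 41 lower on unthinned counts. Without atrial-list-rich spots there were 119 and 65, and without either set of spots 78 and 60. Higher genes alone moved to 137 with a score on thinned counts, 129 with a score from the replication list, 397 with 5000 UMIs per spot and 94 without injury-list-rich spots. In the last case 55.0% of the calls were higher, and 56.5% without either set. Of the 230 higher genes, 54 were called again with the score on thinned counts and 80 with the score from Mki67, Top2a and Ccnb1. The median log2 ratio of the matrix list, 0.79, was 0.547 with ends of 33%, 0.429 with the score on thinned counts, 0.477 with the replication score, 0.549 within depth bands, 0.056 without injury-list-rich spots and 0.001 without either set. That of the fibroblast list, 0.90, was 0.342, 0.252, 0.190 and 0.168 with the thinned score, the replication score, without injury-list-rich spots and without either. That of the chromatin and tubulin list, 0.35, was 0.200, 0.204 and 0.225 with the thinned score, the replication score and without atrial-list-rich spots. With a score from Mki67, Top2a and Ccnb1 alone it was 0.194, the mitosis median, otherwise between 0.417 (ends of 10%) and 0.79, was 0.203, and the G1 median turned to -0.026, as it did with the second thinning (-0.024). Without injury-list-rich spots the respiratory chain median turned to 0.026. Without either set it was also 0.026, the mature cardiomyocyte median turned to 0.013 and the injury region median to -0.062. The immature cardiomyocyte median stayed above the all-gene median in each setting, from 0.39 without either set to 1.63 with the second thinning.

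Single genes turned direction in log2 ratio. Without either set of spots these were Col3a1 (-0.062), Fn1 (-0.054), Adamtsl2 (-0.262), Myl9 (-0.034), Tnc (-0.414), Eln (-0.077), Mgp (-0.132), Tagln (-0.584), Col1a1 (-0.105), Aspn (-0.200) and Col14a1 (-0.098). Adamtsl2 (-0.361) and Aspn (-0.240) also turned without injury-list-rich spots alone. With the replication score, which picks mostly other spots, they were Dnajb4 (1.225), Arhgef10l (0.062), Agrn (0.134), Cenpa (-0.083), Lmod3 (0.283), Bc1 (-0.245), Acta1 (-0.126), Pccb (0.286), Mfap4 (-0.034), Mta1 (0.003), Itga5 (-0.050), Nudt3 (0.064), Hsd17b4 (0.173) and Cited1 (0.337). Dnajb4 turned also unthinned (0.349), at 5000 UMIs (0.184) and with the second thinning (0.323), where Aamdc (0.002) and Gga1 (0.076) turned too. Bnip3 turned at 5000 UMIs (-0.347), Agrn with the thinned score (0.036), and Hhatl with the thinned score (0.002) and the 3-gene score (0.001). Where spots were left out by a list that shares these genes the values fall by construction, and elsewhere the cause was not tested. With about 5 scoring UMIs in a median spot and 1 section, depth limits both the ranking of spots and the calls of low genes. No paired analysis was possible because each group has 1 section.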

Other observations

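With the interval widened to an error level of 0.001, 48 genes were higher in the cycling-rich d4 spots, of which 25 belong to no list. Beside 7 of the 8 unlisted genes already described, these are Atp1b1, Tagln2, Vim, Fabp5, Lxn, S100a11, Megf6, Igfbp7, Pcolce, Apoe, Ubl5, Nmrk2, Gpx3, Actn1, Clptm1l, Map1b, Clu and Fstl1. Examples chosen after their values were seen are Clu, the chaperone clusterin, with 139 and 62 UMIs, Apoe, the lipid carrier apolipoprotein E, with 290 and 132, and Fstl1, a secreted follistatin-like protein, with 236 and 86. Gpx3, a secreted glutathione peroxidase, had 115 and 51 UMIs, S100a11, a calcium-binding protein, 109 and 52, and Vim, the intermediate filament vimentin, 276 and 176. Clu had ratios of 2.24 at d4, 3.17 at d1 and 2.15 at d7, higher in each section, whereas Apoe had 2.20, 2.65 and 1.02.

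Of the 8 genes lower at that level, 4 were also lower in the unthinned counts at the same interval, as were 41 of the 48 higher ones. Nmrk2, a nicotinamide riboside kinase of muscle, had 19 and 3 UMIs thinned at d4, and 3 and 6 at d1. Unthinned at d4 it had 83 and 15, a ratio of 3.78 (2.16 to 7.05).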
